A study of Mus musculus with 6 samples.

Results

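Laminins are the main adhesive proteins of the basement membrane, and the 9 laminin genes Lama1, Lama2, Lama3, Lama4, Lama5, Lamb1, Lamb2, Lamb3 and Lamc1 were followed here among 18193 genes of the mouse array. The members were chosen by name, as the genes of alpha, beta and gamma chains, and all probe sets annotated to exactly 1 of them were used, 17 of 45101. RNA was compared between mesenchymal stem cells (MSC) and neural crest stem cells (NCSC), both labelled as stromal cells of bone marrow from adult mice, with 3 arrays of each. All 6 samples shared the genotype wnt1/CRE-R26R-lacZ, a Cre recombinase under Wnt1 sequences with a lacZ reporter that Cre turns on, the background C57BL/6 x SV129, female sex and an age of 10 weeks. The cells were untreated and were kept in Mesencult medium for 5 passages or more, after which clones were selected. The labels name biological replicates but no mouse or clone for any of them. The p-values therefore reflect the spread of these 6 samples alone, part of which may be technical, and effects of clone and of cell type cannot be told apart if each type was 1 clone.

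A laminin is a cross-shaped molecule of 1 alpha, 1 beta and 1 gamma chain, joined inside the cell through a long coiled coil and then secreted. It is named by the numbers of its chains, so that laminin 211 holds the chains of Lama2, Lamb1 and Lamc1. The alpha chain carries the end that binds integrins and dystroglycan on the cell surface. The alpha 2 chain is typical of the basement membranes of muscle and Schwann cells, the alpha 4 chain of vessels, nerve, muscle and fat, and the alpha 3 and beta 3 chains of epithelia.

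All values are log2 GCRMA intensities, which can be compared between arrays for 1 probe set but not between probe sets. A limit of 4 was set for counting a probe set, and the lowest value of the table was 2.12. A value over the limit need not mean expression, since the Krt5 probe set read the same 5.05 on all 6 arrays. Genes with a probe set over the limit on at least 3 of the 6 arrays were tested with limma, each by its brightest such probe set, and called at a Benjamini-Hochberg adjusted p under 0.05 over all 10501 genes tested. Between 45.2% and 45.5% of the probe sets of each array lay above the limit. MSC 2 and NCSC 3 stood farthest from their groups, with at least 2.62% and 4.63% of tested genes more than 2-fold from each other replicate, against 0.409% and 0.438% for the remaining pair of each cell type.

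Of the 9 laminin genes, 6 were tested, and 4 of these were higher in NCSC, namely Lama4, Lamc1, Lamb2 and Lama2. Of all genes tested, 64.1% were called, 35% higher in NCSC and 29.1% lower, so a raised gene was no rarity between these cell types. Lama4 and Lamc1 rose at least 2-fold, as did 15.1% of the genes tested. Lamc1, Lamb2 and Lama2 were each called also without MSC 2 and NCSC 3 (limma adjusted p = 0.000442, 0.00214 and 0.00192). That setting was chosen after the data were seen and takes out the arrays farthest from their groups. It called 7773 of 10501 genes, against 6731 with all arrays, so keeping a call in it adds little. In RNA from whole cultures, fewer cells expressing a gene and less RNA per cell cannot be told apart. No laminin gene was called lower, and none was lower at an unadjusted p under 0.05 in limma's test (0 of 6). Lamb1 and Lama5 were not called. Lama1, Lama3 and Lamb3 stayed under the limit on every array of both cell types. Lama4 passed the filter through its NCSC arrays, the sole tested member to do so, and a gene that passes in this way has to differ. Its call is therefore no support beyond its values, which are given as a description without a p.

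**Figure D1:**
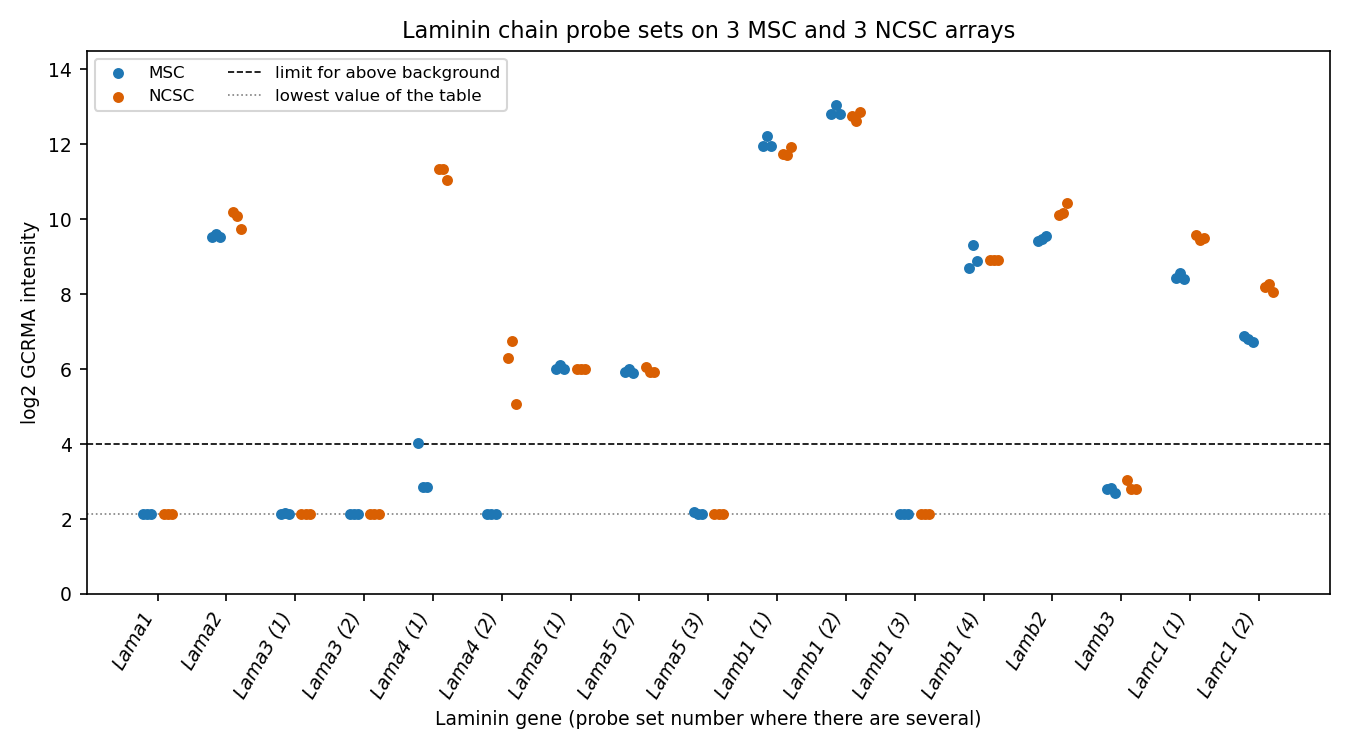
The log2 GCRMA intensity of each of the 17 laminin probe sets is plotted for the 3 MSC arrays (blue) and the 3 NCSC arrays (orange), with the limit of 4 dashed and the lowest value of 2.12 dotted. Both Lama4 probe sets lie far higher on the NCSC arrays, the Lamc1, Lamb2 and Lama2 probe sets lie moderately higher, and Lama1, Lama3 and Lamb3 lie under the limit.

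The alpha 4 chain was bright in NCSC and at or near background in MSC. Lama4 encodes a short alpha chain that lacks the outermost arm of the cross. Its brighter probe set read 4.02, 2.85 and 2.85 on MSC 1, MSC 2 and MSC 3 and 11.35, 11.35 and 11.04 on NCSC 1, NCSC 2 and NCSC 3. MSC thus lay at or under the limit, with MSC 1 just above it, while all NCSC arrays were bright and the groups did not overlap. The mean was 3.24 ± 0.68 (SD, n = 3) in MSC and 11.25 ± 0.18 in NCSC, which makes Lama4 at least 151-fold higher in NCSC when MSC values under the limit are set to it. Of the genes tested, 3.68% were above the limit in the NCSC mean but not in the MSC mean. The second Lama4 probe set read 2.14, 2.12 and 2.14 in MSC and 6.29, 6.74 and 5.07 in NCSC. It was at least 4.10-fold higher in NCSC, and it too passed the filter through its NCSC arrays alone. NCSC 3 was the lowest NCSC array on both.

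RNA of the alpha 2 chain read above the limit in both cell types. Lama2 encodes the alpha chain whose loss causes a congenital muscular dystrophy with defects of peripheral myelin. Its probe set read 9.54, 9.60 and 9.52 on the MSC arrays and 10.20, 10.08 and 9.74 on the NCSC arrays. All NCSC arrays were above all MSC arrays, and NCSC 3 was closest to MSC. The difference was 0.45 ± 0.13 on the log2 scale (SE), or 1.37-fold, with an adjusted p of 0.0235 in limma's test. This call was lost when MSC 1, MSC 3, NCSC 1 or NCSC 2 was left out (adjusted p = 0.0703, 0.0733, 0.0706 and 0.076), and without the filter on low values (0.0707), while all settings together ran from 0.000403 to 0.076.

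Lama5 encodes the alpha chain of most adult basement membranes, and its values hardly moved over the arrays. The brightest of its 3 probe sets read 6.01, 6.12 and 6.02 in MSC and 6.01, 6.00 and 6.01 in NCSC, a difference of -0.040 ± 0.073 (SE) with a 95% confidence interval of -0.22 to 0.14 (limma adjusted p = 0.654). Of the genes tested, 0.876% had a range over the 6 arrays as narrow as this one, 0.11. Though not called, its groups did not overlap, as for 5 of the 6 laminin genes tested and 71.2% of all genes tested. The second probe set lay between 5.89 and 6.05 on all arrays, with the same 5.94 on MSC 1, NCSC 2 and NCSC 3. It differed by 0.030, while the third was between 2.12 and 2.20. Values above the limit that hardly vary do not by themselves show that a gene is expressed, and whether they are a floor of these probe sets was not tested.

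Of the remaining alpha chains, Lama1, the alpha chain of the early embryo, was at the lowest value of 2.12 on all 6 arrays. Lama3, the epithelial alpha chain, read 2.13 to 2.15 on one probe set and 2.14 on the other. No difference was tested for either.

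Of the beta chains Lamb2 was called and Lamb1 was not. Lamb1 and Lamb2 encode alternative beta chains, the former widespread in the embryo and the latter typical of the neuromuscular junction and the kidney filter. The Lamb2 probe set read 9.42, 9.49 and 9.55 in MSC and 10.11, 10.16 and 10.44 in NCSC, without overlap. Lamb2 was higher by 0.75 ± 0.11 (SE), or 1.68-fold, in NCSC (limma adjusted p = 0.00149). The brightest Lamb1 probe set read 12.80, 13.06 and 12.80 in MSC and 12.75, 12.63 and 12.86 in NCSC, and the groups overlapped. It differed by -0.14 ± 0.11 (SE), with a 95% confidence interval of -0.41 to 0.13 (adjusted p = 0.307). For this probe set a change beyond these bounds was therefore not seen, while smaller ones could not be told from the spread. Other Lamb1 probe sets, with means of 12.05 and 8.97 in MSC, had wider bounds. They differed by -0.25 (95% confidence interval -0.53 to 0.036) and -0.055 (-0.44 to 0.33) and were not called, the former without overlap. The remaining one was at 2.12 on all arrays.

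The change of Lamb2 relative to Lamb1 was examined within each array, since this difference does not depend on a factor common to a whole array. It can still depend on a normalization that acts by intensity. With quantile normalization Lamb2 differed by 0.69 and Lamb1 by -0.13 between the cell types. The log2 value of Lamb2 minus that of Lamb1 shifted by 0.89 from MSC to NCSC, being -3.38, -3.57 and -3.25 on the MSC arrays and -2.64, -2.47 and -2.42 on the NCSC arrays. All NCSC arrays lay above all MSC arrays. The exact two-sided permutation p was 0.1, the smallest that 3 arrays against 3 allow, and also 0.1 after adjustment over the 3 chain pairs examined. For Lamc1 against Lamb1 the shift was 1.17, with the same p of 0.1 and without overlap. The third pair, Lama4 against Lama2, is given no shift, since Lama4 was not above the limit in the MSC mean. A test of this size cannot reach 0.05, so the shifts are values only, and they do not give the ratio of the chains.

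Lamb3, the epithelial beta chain, was between 2.70 and 2.83 in MSC and between 2.79 and 3.04 in NCSC. It was thus under the limit throughout and was not tested.

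The gamma 1 chain, the gamma chain of most laminins, was also higher in NCSC. The brighter Lamc1 probe set read 8.45, 8.56 and 8.41 in MSC and 9.58, 9.45 and 9.49 in NCSC. The difference was 1.04 ± 0.083 (SE), or 2.05-fold, with an adjusted p of 0.000111 in limma's test. The second probe set read 6.89, 6.81 and 6.71 in MSC and 8.18, 8.28 and 8.06 in NCSC, a difference of 1.37 ± 0.097 (adjusted p = 8.23e-05 over all 18640 kept probe sets, of which 60.1% were called). Neither probe set overlapped between the groups, where 71.2% of genes tested did not. Lamc3, the gamma 3 chain, was at 2.56 on all arrays in its brighter probe set.

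**Figure D2:**
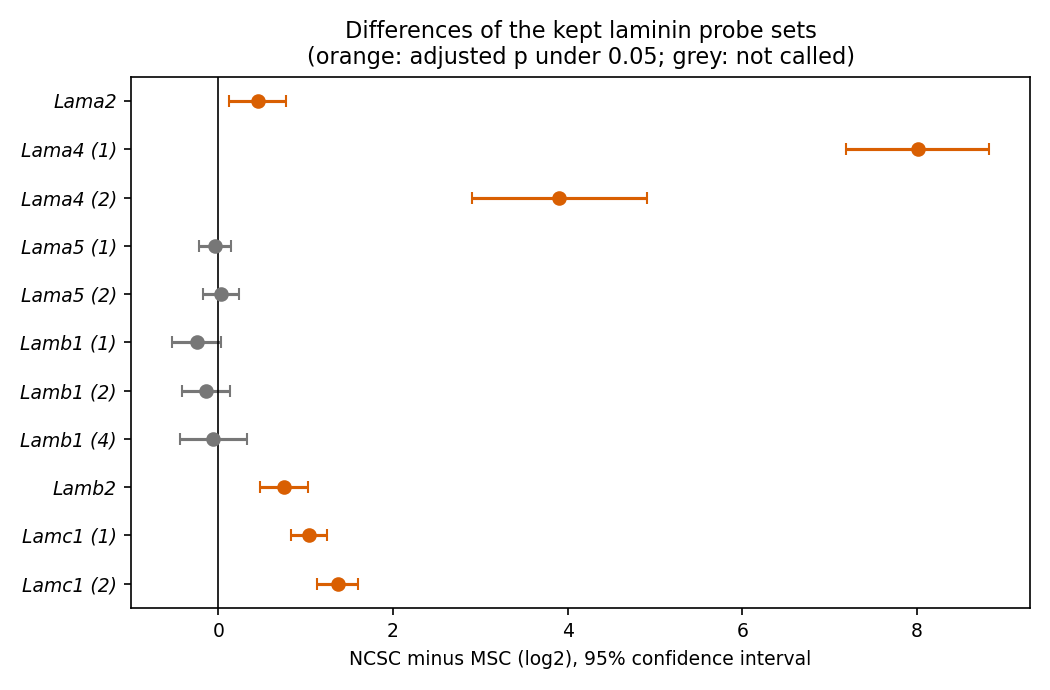
The log2 difference (NCSC minus MSC) is shown with its 95% confidence interval for the 11 laminin probe sets that passed the filter, from the fit over all kept probe sets. Both Lama4 and both Lamc1 probe sets, Lamb2 and Lama2 lie above 0 and were called (orange), whereas the Lama5 and Lamb1 probe sets were not (grey).

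The regulatory sequence before the start of a gene could be shown for some of these chains. RefSeq promoter entries (GRCm38.p6) matched 5 of the 9 genes, and the 250 bases before the start are printed for both beta chains measured above the limit and for Lama2, 5′ to 3′ on the strand of the gene. Capitals mark matches to the GC box GGGCGG on either strand (CCGCCC is its reverse complement).
Lamb1 promoter, chr12:31265043-31265292, plus strand: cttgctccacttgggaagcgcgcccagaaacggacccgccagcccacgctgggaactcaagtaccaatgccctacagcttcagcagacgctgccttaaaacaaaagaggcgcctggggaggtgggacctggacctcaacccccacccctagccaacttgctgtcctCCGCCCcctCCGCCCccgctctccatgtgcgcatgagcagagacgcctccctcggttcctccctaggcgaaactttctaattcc
Lamb2 promoter, chr9:108479612-108479861, plus strand: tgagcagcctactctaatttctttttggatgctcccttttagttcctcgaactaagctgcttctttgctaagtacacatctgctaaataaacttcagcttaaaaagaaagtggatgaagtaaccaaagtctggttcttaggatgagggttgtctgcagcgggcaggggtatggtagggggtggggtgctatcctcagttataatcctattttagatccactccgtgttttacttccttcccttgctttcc
Lama2 promoter, chr10:27616943-27617192, minus strand: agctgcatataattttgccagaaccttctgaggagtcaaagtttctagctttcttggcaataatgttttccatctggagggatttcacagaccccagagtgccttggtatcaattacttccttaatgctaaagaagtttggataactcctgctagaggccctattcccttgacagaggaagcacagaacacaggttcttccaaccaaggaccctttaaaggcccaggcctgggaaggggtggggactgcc

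The 3 windows differed in base composition. G and C made up 62.0% of the Lamb1 window, against 43.6% for Lamb2, 47.2% for Lama2 and a median of 52.4% over all 32851 promoter entries. The Lamb1 window held 2 GC boxes, and the Lamb2 and Lama2 windows held none. A GC box was found in 32.7% of all entries. The core letters of SOX factors, searched as ACAAAG or ACAATG on both strands, and the TATA box TATAAA were in none of the 3 windows and in 25.2% and 12.4% of all entries. A match or its absence describes these letters only and says nothing of which factors bind.

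The trimers that each cell type could build were read from a list of 13 known combinations of chains. A chain counted when at least 1 of its probe sets was above the limit on all 3 arrays of the cell type. By this count 5 of the 9 chains were above the limit in MSC and 6 in NCSC, the additional chain being Lama4. All 3 chains were above the limit for 4 trimers in MSC, laminins 211, 221, 511 and 521, and for 6 trimers in NCSC, the same ones together with laminins 411 and 421. With Lama5 left out for its near-constant values, a choice made after they were seen, 2 trimers remained in MSC (laminins 211 and 221) and 4 in NCSC. Laminins 111, 121, 311 and 321 lacked their alpha chain in both cell types. Laminins 213, 423 and 523 lacked the gamma 3 chain. A value above the limit is no proof of expression, least of all for Lama5 and so for laminins 511 and 521. RNA of all 3 chains would allow a trimer but does not show that it was assembled or secreted.

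**Figure D3:**
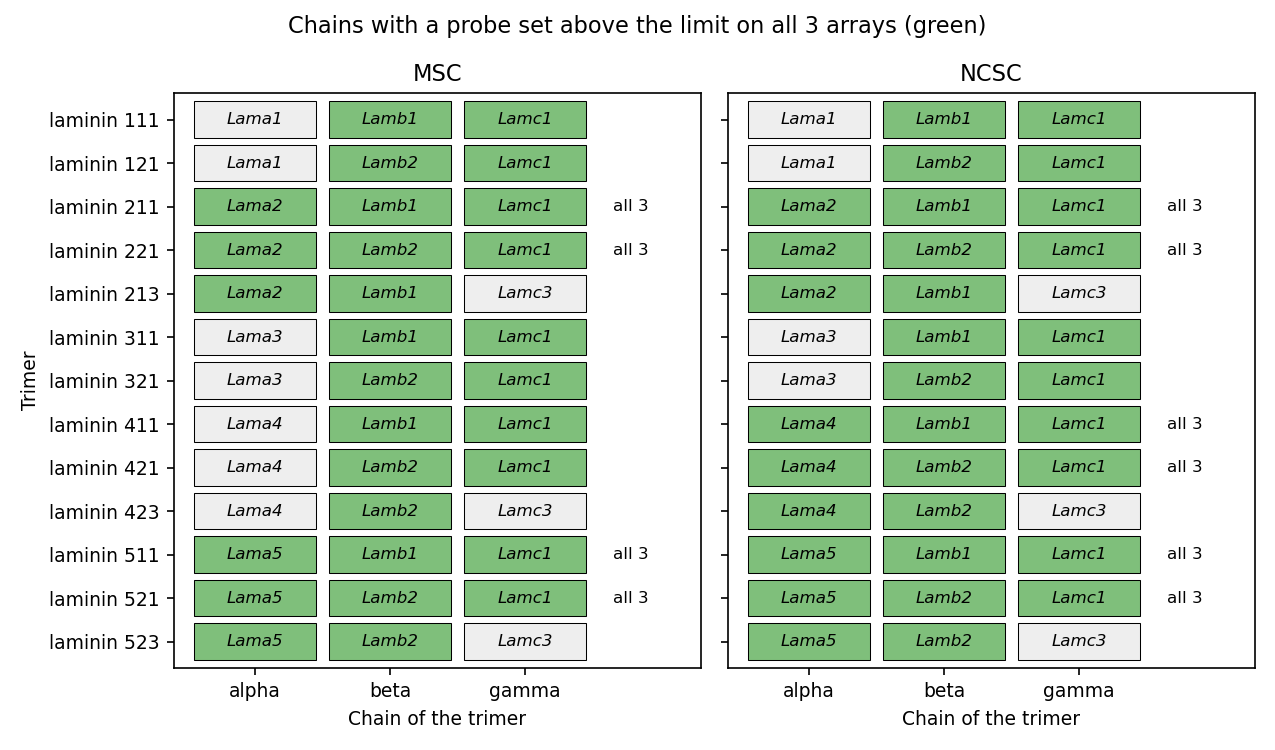
For the 13 listed trimers each row shows the alpha, beta and gamma gene, in green where a probe set was above the limit on all 3 arrays of MSC (left) or NCSC (right). The complete rows are the same in both panels except for laminins 411 and 421, which are complete in NCSC alone.

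The receptors that hold laminin at the cell surface were measured on the same arrays. Of 12 listed receptor genes 9 were tested, 5 of them higher and 1 lower in NCSC (35% and 29.1% of all genes tested), with a median difference of 0.57 against 0.056 over all genes tested. Dystroglycan (Dag1), which binds the globular end of alpha chains, read 12.14, 12.16 and 12.15 in MSC and 14.39, 14.30 and 14.37 in NCSC. It was higher by 2.20 ± 0.072 (SE) in NCSC (limma adjusted p = 2.15e-06), and its other 3 probe sets rose by 1.77 to 2.70. Itga7, the integrin alpha chain of muscle, read 3.996, 6.76 and 4.02 in MSC and 9.71, 9.73 and 10.79 in NCSC, so that MSC 2 stood apart, and the difference was 5.15 ± 0.80 (adjusted p = 0.00179). Itga3, the alpha chain of a receptor for laminins with alpha 3 or alpha 5, rose by 3.15 ± 0.16 (adjusted p = 1.72e-05). The shared integrin beta chain Itgb1 differed by -0.55 in its brightest probe set, at 13.84, 14.08 and 14.00 in MSC and 13.50, 13.35 and 13.41 in NCSC (adjusted p = 0.00292). A dimmer Itgb1 probe set, at a difference of -0.16, was not called. Itga6, named after its values were seen because it is a main laminin receptor, was higher by 0.76 ± 0.22 (adjusted p = 0.0235), a call that ended when MSC 1, MSC 3, NCSC 1 or NCSC 2 was left out (adjusted p = 0.0744, 0.0739, 0.0722 and 0.0794, all settings 0.000171 to 0.0937). The dimmer Itga6 probe set rose by 0.75 ± 0.13 (SE, limma adjusted p = 0.00342 over all kept probe sets). It was not refitted with arrays left out. Itgb4 and Bcam, which serve as laminin receptors in epithelia and on red blood cells, were at 2.12 on all arrays.

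Of 19 other listed basement membrane genes 13 were tested, 4 higher, 4 lower and 5 not called, with a median difference of -0.12. These counts lie near the shares over all genes tested, 35% higher and 29.1% lower. Col18a1 and Col15a1 encode the collagens of the outer basement membrane. Col18a1 read 8.36, 7.16 and 8.62 in MSC and 14.59, 14.45 and 14.44 in NCSC (limma adjusted p = 2.76e-05), and Col15a1 was at least 6.01-fold higher in NCSC. Nephronectin (Npnt), an integrin ligand, differed by -4.44 ± 0.14 (SE, adjusted p = 1.87e-06), and the calcium-binding protein Smoc1 was at least 30.5-fold lower. Col15a1 passed the filter through its NCSC arrays alone and Smoc1 through its MSC arrays alone, so both had to differ and no p is given.

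The partners that link laminin to the collagen IV network were named after their values were seen. The proteoglycan agrin (Agrn), which binds both laminin and dystroglycan, rose from 9.79 ± 0.48 (SD, n = 3) in MSC to 13.37 ± 0.031 in NCSC (limma adjusted p = 4.67e-05). The collagen IV chains Col4a1 and Col4a2 differed by 0.088 (95% confidence interval -0.12 to 0.29) and 0.25 (-0.065 to 0.57) and were not called, although Col4a2 was called higher without MSC 2 (adjusted p = 0.0319). Perlecan (Hspg2) differed by -0.12 (-0.75 to 0.51), or by 0.18 without MSC 2, and was not called. Nidogen 1 (Nid1), the link between laminin gamma 1 and collagen IV, differed by -0.39 (-0.85 to 0.072) in its brightest probe set and was not called, whereas its 2 dimmer ones were called lower, at -0.88 and -0.91.

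**Figure D4:**
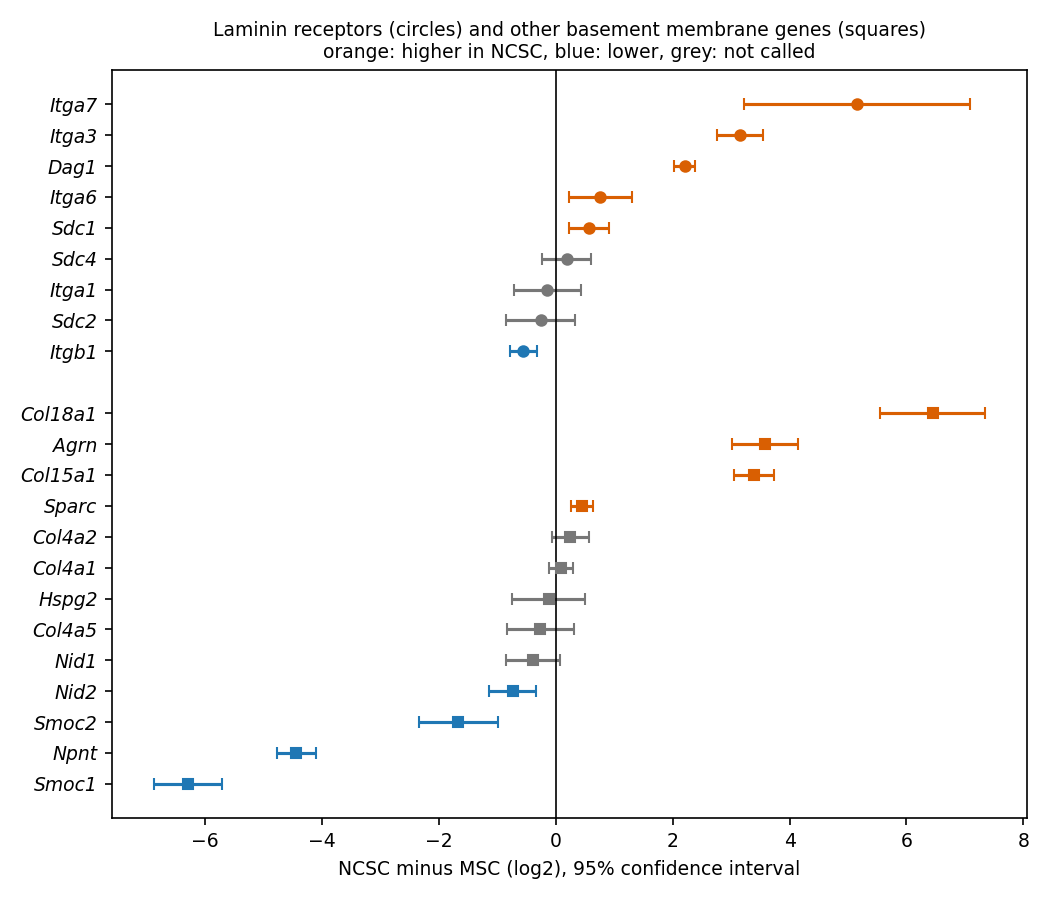
The log2 difference (NCSC minus MSC) and its 95% confidence interval are shown for the 9 tested laminin receptors (circles) and the 13 tested other basement membrane genes (squares). Itga7, Itga3, Dag1, Col18a1, Agrn and Col15a1 lie more than 1 above 0, Smoc1, Npnt and Smoc2 more than 1 below, and Col4a1, Col4a2, Hspg2, Col4a5 and Nid1 were not called.

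The netrins, whose arm resembles that of laminins, were tested for 2 of 7 listed genes of laminin and netrin relatives. Ntn4, a netrin that binds laminin gamma 1 and disrupts laminin networks, read 11.83, 12.30 and 11.82 in MSC and 10.86, 10.84 and 10.81 in NCSC. It differed by -1.15 ± 0.15 (SE, limma adjusted p = 0.000778), and its second probe set by -1.48. Ntn1 was higher by 0.71 ± 0.26 at an adjusted p of 0.0498. That call was lost without MSC 1, MSC 2, MSC 3 or NCSC 2 (0.082, 0.124, 0.127 and 0.0639), and 8 of 17 settings did not call it, the adjusted p running from 0.018 to 0.165.

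The genes whose 6 centred values lay closest to each chain were sought among all genes tested, as a description. Closest to Lama4 were Ctsw, a cathepsin, and Flrt3, an adhesion protein, at Euclidean distances of 0.72 and 0.74 on the log2 scale over 6 arrays. Closest to Lamc1 were Sun1 and Pigk (0.056 and 0.062), to Lamb2 Tmem131 and Pbx3 (both 0.10), and to Lama2 Synj1 and Plin2 (0.092 and 0.10). Closest to Lamb1 were H13 and Hnrnpul2 (0.068 and 0.10), and to Lama5 Clec16a and Jrk (0.022 and 0.033).

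Markers of the labelled cell types and of others were read beside these results. All 10 neural crest markers were tested, 7 higher and 3 lower in NCSC, where 35% and 29.1% of all genes tested were higher and lower. Among the higher ones, Sox10 was at 4.30 ± 0.46 (SD, n = 3) in MSC and 12.84 ± 0.23 in NCSC. The lower ones, Sox9, Snai2 and Twist1, differed by -3.46, -0.99 and -1.92. Foxd3, Ngfr, Erbb3, Nt5e, Cdh19, Des and Cd68 passed the filter through their NCSC arrays alone, and Cnn1 through its MSC arrays alone. These markers had to differ, so their calls are no support in the counts of this paragraph. Of 8 tested mesenchymal markers 4 were higher and 4 lower, and Thy1 was at 2.12 on all arrays. All 7 endothelial markers, among them Pecam1 and Cdh5, were at 2.12 on all 6 arrays. Summed levels of markers add linear intensities over probe sets, so the brightest probe sets set them and they do not measure a cell type. Of 7 Schwann cell markers 5 had a probe set and 3 were tested, all higher in NCSC. Their summed level ran from 11.98 to 12.15 in MSC and from 14.02 to 14.58 in NCSC. Pmp22 alone had means of 12.04 and 13.55. S100b was at 2.15 on all MSC arrays and on NCSC 3, and at 7.72 and 7.29 on NCSC 1 and NCSC 2. Of 7 muscle markers 1 was higher and 3 were lower in NCSC, and Myog, Myod1 and Myh11 were at 2.12 throughout. Their summed level was 15.68 to 15.80 in MSC and 13.76 to 14.29 in NCSC, close to the means of Acta2 alone, 15.58 and 14.09. Of 9 macrophage and blood cell markers 3 were tested and 2, Cd68 and Lyz2, were higher in NCSC, while Ptprc, Itgam and Fcgr3 were at 2.12 throughout. Cd14, not tested, went the other way, at 4.63, 3.96 and 5.15 in MSC and 2.19, 2.16 and 2.19 in NCSC. The summed level of this list was 7.22 to 7.26 in MSC and 9.52 to 9.79 in NCSC. Of 6 epithelial markers 1 was tested and not called, with a summed level of 5.88 to 5.93 in MSC and 5.93 to 5.99 in NCSC. The part of the Schwann cell, muscle and macrophage markers in the laminin differences was not tested.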

How the data were processed

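The deposited table held GCRMA intensities on a linear scale, made by the authors with GCRMA per the submitters' processing notes (version and genome build not given in the sources used here). This method subtracts a background modelled from probe sequence and makes arrays comparable. Its floor, 2.12 on the log2 scale, compresses low values, so folds against groups under the limit are given as lower bounds. Values were taken to log2 without further normalization. Probe sets were named from GEO's platform annotation, with symbols updated through RefSeq (34741 of 34945 single-gene probe sets matched).

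The fits used lmFit and eBayes of limma 3.58.1 (R 4.3.3), two-sided, on 3 against 3 arrays, whose number limits the precision, for 10501 genes and for 18640 kept probe sets, after a check on simulated data. Lower bounds set the dimmer group's values under 4 to 4. Alternatives covered the filter, limit, floor, probe set choice, normalization, variance model, array weights, replicate block and each left-out array. The genes named are all laminin genes, up to 4 tested genes of each other list with the smallest adjusted p, and the 2 genes nearest to each tested chain. Itga6, Agrn, Col4a1, Col4a2, Hspg2, Nid1, Itgb4, Bcam and the markers given as examples are outside this rule and were named after their values were seen. The members and lists were chosen with earlier results of these data known. Probe sets of several genes were not used. One item of the planned lists is not reported here.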

Additional observations from a re-analysis of the deposited data

How the results depend on the processing

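The number of laminin chains called higher in NCSC was 4, ran from 3 to 4 as single arrays were left out, and was 4 without MSC 2 and NCSC 3 together, an alternative chosen after the data were seen. No setting called a chain lower. Lamc1 and Lamb2 kept direction and call in all 17 alternatives run, with differences from 0.97 to 1.20 and 0.65 to 0.81. Lama4 was higher in NCSC in the 16 alternatives that hold it (the filter on all 6 arrays removes it), which adds no support, since the filter chose it by its NCSC arrays. Lama2 lost its call in 5 of 17, and Lama5 and Lamb1 were called in none. The labels do not say whether the replicate numbers pair the arrays. Deviations from the group means correlated weakly between arrays of the same number (-0.098, 0.062 and 0.073), which does not settle it with 3 arrays a group. With the replicate block 4 chains were called higher and 0 lower. When every probe set of a chain had to be above the limit, which removes Lama5 and Lamb1 by construction, 3 chains and 1 trimer counted in MSC and 2 trimers in NCSC. Each time a single array was left out, 5 chains and 4 trimers counted in MSC and 6 chains and 6 trimers in NCSC. Hspg2 changed sign with the mean of its probe sets (0.093), array weights (0.14), and without MSC 2 and NCSC 3 (0.19), and ran from -0.31 to 0.18 as single arrays were left out, positive without MSC 2 alone. The cause was not tested. Probe sets near the floor give no order of levels.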

Other observations

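The list of enzymes that build the sugar chain through which dystroglycan binds laminin held 13 genes, of which 9 had a probe set and were tested, 4 higher, 3 lower and 2 not called in NCSC, with a median difference of 0.29. Of all genes tested 35% were higher and 29.1% lower. B4gat1, which primes that chain, read 9.80, 9.85 and 9.48 in MSC and 11.43, 11.30 and 11.36 in NCSC, a difference of 1.65 ± 0.12 (SE, limma adjusted p = 7.07e-05). Rxylt1, which adds the xylose below it, was lower in NCSC, at 12.33, 12.46 and 12.42 in MSC against 11.22, 11.22 and 11.18. B3galnt2, an early step of the core sugar, differed by -0.75 ± 0.098 (adjusted p = 0.00087), and Pomt1, a subunit of the enzyme that starts it, by 0.55 ± 0.097 (adjusted p = 0.00318). Without the filter on low values 2 of these enzymes, rather than 4, were called higher. The share over all genes fell too, from 3672 of 10501 to 3225 of 18193 called higher.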
